A study of Mus musculus with 6 samples.

Results

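The transcripts of 10 epithelial genes were followed in 6 mouse ovarian tumours: the surface protein Epcam, the keratins Krt7, Krt8, Krt18 and Krt19, the adhesion protein Cdh1, the claudins Cldn3, Cldn4 and Cldn7, and the mucin Muc1. The genes were chosen by name, and 8 of the 10 had a row among the 16344 genes of the deposited table. Cldn4 and Cldn7 had none and are not analysed here. The series asked how the CSF1R inhibitor AZD7507, which acts on a receptor that macrophages need, changed ovarian tumours that regrow after carboplatin. It compared 3 tumours labelled AZD7507 with 3 tumours labelled Vehicle, all at endpoint. Every tumour came from 1 mouse cell line, 60577, grown in the abdominal cavity of syngeneic mice for 21 days. The animals next received 3 cycles of carboplatin, 1 a week, and then 84 days of daily oral gavage. The same protocol text is attached to every sample. It names AZD7507 as the gavage and does not describe the Vehicle animals separately. No genotype, strain name, sex or age was given. Each sample title carries its own code, but no label says which animal that code stands for.

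Keratins are the intermediate filaments of epithelial cells and assemble as pairs of a type II chain, such as Krt7 or Krt8, with a type I chain, such as Krt18 or Krt19. Epcam and Cdh1 hold neighbouring epithelial cells together, claudins form the strands of tight junctions that close the gap between cells, and mucins cover the free surface. In serous ovarian tumours these transcripts mark the carcinoma cells, but mesothelium and the glandular epithelium of the pancreas make several of them too. In bulk tissue, fewer cells of a type and less RNA per cell cannot be told apart.

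None of the 8 measured genes passed the test between AZD7507 and Vehicle tumours (limma, Benjamini-Hochberg adjusted p under 0.05 over all genes). All 8 differences were above 0, with a median of 0.39 on the log2 scale, where 54.5% of all genes were above 0 and the median over all genes was 0.025. The keratin pair Krt8 and Krt18 had the smallest standard errors, with AZD7507 means higher by 0.39 and 0.41 log2 units and no overlap between groups. The claudin Cldn3 had the largest difference and a wide spread. The 8 genes did not vary as 1 block: Krt7, Krt19 and Epcam were lowest, and Cldn3 and Muc1 highest, in the same pair of tumours, 1 from each group, which also carried pancreatic acinar transcripts.

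The promoters of 5 of the genes are shown because these genes stand for the patterns described below: Krt8 and Krt18 kept a nearly constant ratio, Epcam was low and Cldn3 and Muc1 were high in the tumours with acinar transcripts. Each run is the 250 bases before the RefSeq start on GRCm38.p6, read 5′ to 3′ on the strand of the gene. Capitals mark CACCTG or its reverse complement CAGGTG, the E-box bound by the repressors of the Zeb and Snai families.
Krt8 (chr15:102004343-102004592, minus strand): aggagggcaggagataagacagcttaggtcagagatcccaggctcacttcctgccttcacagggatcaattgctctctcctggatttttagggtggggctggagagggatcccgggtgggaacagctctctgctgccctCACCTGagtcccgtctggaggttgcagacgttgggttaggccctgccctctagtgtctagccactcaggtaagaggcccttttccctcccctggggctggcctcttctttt
Krt18 (chr15:102027966-102028215, plus strand): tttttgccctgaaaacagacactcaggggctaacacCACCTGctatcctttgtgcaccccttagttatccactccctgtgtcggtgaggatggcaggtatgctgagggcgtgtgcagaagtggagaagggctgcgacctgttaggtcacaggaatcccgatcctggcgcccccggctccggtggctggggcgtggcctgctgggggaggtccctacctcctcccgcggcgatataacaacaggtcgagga
Epcam (chr17:87635729-87635978, plus strand): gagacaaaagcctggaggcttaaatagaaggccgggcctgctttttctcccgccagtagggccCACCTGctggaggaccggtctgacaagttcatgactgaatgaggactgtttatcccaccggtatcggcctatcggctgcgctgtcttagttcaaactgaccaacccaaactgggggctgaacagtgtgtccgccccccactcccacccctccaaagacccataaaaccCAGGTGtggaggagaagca
Cldn3 (chr5:134985964-134986213, plus strand): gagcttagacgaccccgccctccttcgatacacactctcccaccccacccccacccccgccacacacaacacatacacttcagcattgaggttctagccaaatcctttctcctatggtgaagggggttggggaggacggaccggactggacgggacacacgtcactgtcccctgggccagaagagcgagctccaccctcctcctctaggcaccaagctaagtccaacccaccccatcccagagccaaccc
Muc1 (chr3:89228806-89229055, plus strand): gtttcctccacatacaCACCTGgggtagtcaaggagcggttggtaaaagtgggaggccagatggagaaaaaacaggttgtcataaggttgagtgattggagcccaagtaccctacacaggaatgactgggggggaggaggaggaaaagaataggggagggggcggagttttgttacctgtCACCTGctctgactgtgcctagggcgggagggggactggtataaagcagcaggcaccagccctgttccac

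RefSeq promoter entries were matched for 8 of the 10 genes, all but Krt19 and Cdh1. The E-box occurred in these windows for 7 of the 8 genes, with 1 match each in Krt7, Krt8, Krt18 and Cldn4, 2 in Epcam, 2 in Muc1, and 2 in 1 of the windows of Cldn7. Among 32851 promoter windows of the same length, 17.2% held it, which is a share of windows and not of genes. Cldn4 and Cldn7, counted among the 7, have no expression value here. In Epcam the matches began 187 and 19 bases before the RefSeq start, in Muc1 234 and 70 bases before it, in Krt8 111 and in Krt18 214 bases before it. The RefSeq starts differ from the gene annotation used below for some genes. By that annotation, the Krt7 window and the Cldn7 window with matches lie inside the gene, not upstream of it. The Krt8 and Krt18 windows overlap the gene in part, and the Krt8 match falls inside it. The window of Cldn3 held none of these letters. A TATAAA on either strand was found for Muc1 and for none of the other genes, where 12.4% of all windows held one.

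On GRCm38, in the GENCODE M21 annotation, Krt7 lies on chromosome 15 at 101411043 to 101430313, Krt8 on chromosome 15 at 101996698 to 102004482 and Krt18 on chromosome 15 at 102028180 to 102032027. Krt8 is on the minus strand and Krt18 on the plus strand, so they point away from each other across 23.7 kb. Krt19 lies apart from them on chromosome 11 at 100140810 to 100148665. Epcam is on chromosome 17 at 87635979 to 87651129, Cdh1 on chromosome 8 at 106603351 to 106670246, Cldn3 on chromosome 5 at 134986214 to 134987472 and Muc1 on chromosome 3 at 89229057 to 89233381. All are protein-coding. Cldn4, without a value here, is a neighbour of Cldn3 at a distance of 39.3 kb.

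Values are log2 RPKM, read density per gene length and library size on a log2 scale, normalized by the authors with cqn. They are given for tumours 1, 2 and 3 of each group, and means carry the SD with n = 3 tumours. The 0 calls among the 8 stand beside 0.355% of all genes that passed in either direction, 0.0184% (3 genes) higher and 0.337% (55 genes) lower in AZD7507 tumours. At an unadjusted p under 0.05, 2 of the 8 were higher, Krt8 and Krt18, against 3.31% of all genes, and 0 were lower, against 5.49%. The groups did not overlap for the same pair, higher in AZD7507 tumours, against 7.34% of all genes, and for none of the 8 downward, against 8.02%.

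**Figure D1:**
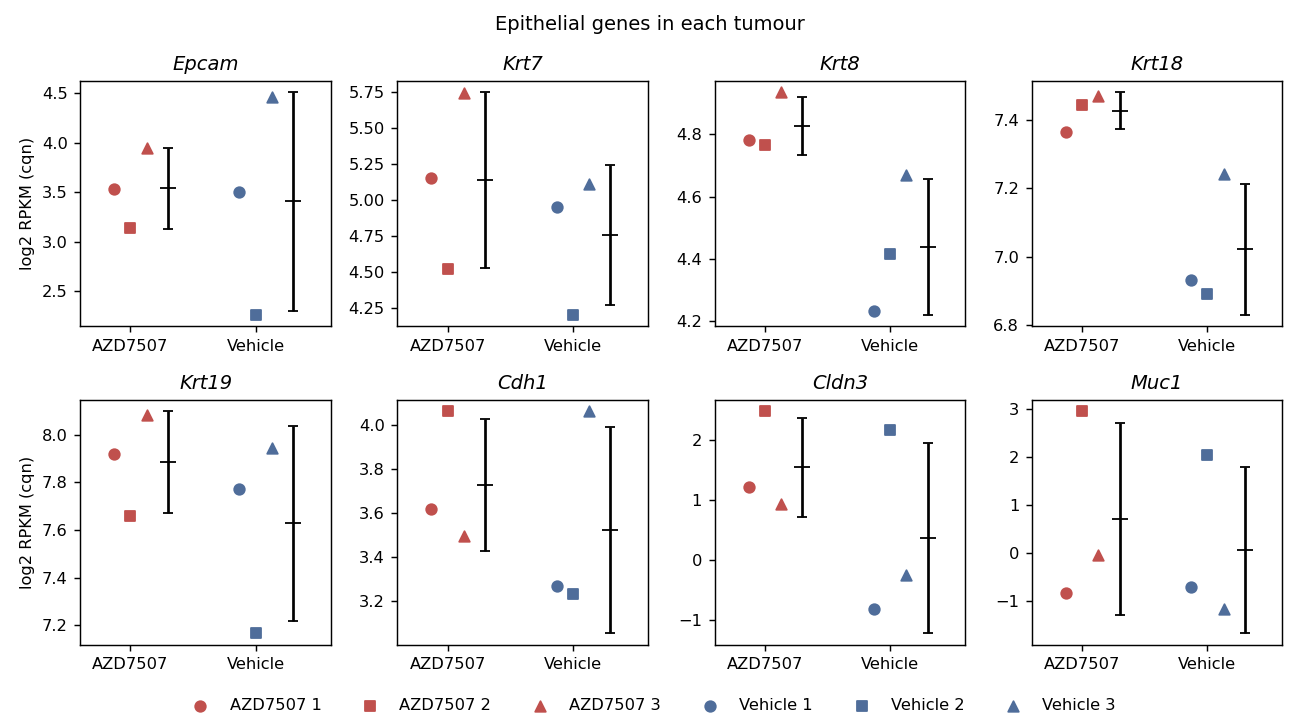
Log2 RPKM of the 8 measured epithelial genes, 1 panel per gene with its own vertical axis that does not start at 0. Points are tumours, with 1 symbol per tumour number, and the bar beside each group is the mean ± SD (n = 3). The AZD7507 points of Krt8 and Krt18 lie above all Vehicle points, and in the other panels the groups overlap.

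Krt8, the type II keratin of simple epithelia, was at 4.78, 4.76 and 4.93 in AZD7507 tumours, against 4.23, 4.41 and 4.67 in Vehicle tumours. Every AZD7507 tumour was above every Vehicle tumour, and the gap to the highest Vehicle tumour was small. The difference was 0.39 (SE 0.14, 95% interval 0.07 to 0.71), which is 1.31-fold, with an adjusted p of 0.46 in limma. Krt18, its usual type I partner, was at 7.37, 7.44 and 7.47 in AZD7507 tumours, against 6.93, 6.89 and 7.24 in Vehicle tumours. The AZD7507 tumours lay close together, with an SD of 0.05 against 0.19, and none overlapped with a Vehicle tumour. Krt18 differed by 0.41 (SE 0.13, 95% interval 0.09 to 0.72), which is 1.32-fold, with an adjusted p of 0.42 in limma.

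The ratio of the pair was nearly the same in every tumour. Krt18 exceeded Krt8 by 2.59, 2.68 and 2.53 log2 units in AZD7507 tumours, against 2.70, 2.48 and 2.57 in Vehicle tumours, a range of 0.22 over the 6 tumours. No such closeness held between Krt7 and Krt8, where the log2 ratio ran from -0.24 to 0.81. Both low values of that ratio, -0.24 in AZD7507 tumour 2 and -0.21 in Vehicle tumour 2, came from the tumours with acinar transcripts. Krt8 has an annotated processed pseudogene, Krt8-ps, and keratins are a family of similar sequences, so reads may have been split between copies.

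Krt7, a type II keratin of ducts and of ovarian and tubal epithelium, was at 5.15, 4.52 and 5.74 in AZD7507 tumours, against 4.95, 4.20 and 5.11 in Vehicle tumours. Tumour 2 was the lowest of each group, and the groups overlapped. The means were 5.14 ± 0.61 and 4.75 ± 0.48, a difference of 0.38 (SE 0.35, 95% interval -0.43 to 1.19, limma adjusted p 0.83). Krt19, a type I keratin of simple and ductal epithelium, was at 7.92, 7.66 and 8.08 in AZD7507 tumours, against 7.77, 7.17 and 7.95 in Vehicle tumours. Again tumour 2 was the lowest of each group. Krt19 differed by 0.26 (SE 0.22, 95% interval -0.27 to 0.78, limma adjusted p 0.82). Single tumours moved both values. Krt7 differed by 0.08 without AZD7507 tumour 3, 0.11 without Vehicle tumour 2 and 0.69 without AZD7507 tumour 2. Krt19 differed by 0.03 without Vehicle tumour 2, 0.16 without AZD7507 tumour 3 and 0.42 without Vehicle tumour 3.

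Epcam, a surface adhesion protein of most simple epithelia and their carcinomas, was at 3.53, 3.14 and 3.95 in AZD7507 tumours, against 3.50, 2.26 and 4.46 in Vehicle tumours. The highest and the lowest of the 6 values both belonged to the Vehicle group. Its difference of 0.13 (SE 0.51, 95% interval -1.06 to 1.32, limma adjusted p 0.97) lay far inside that spread. Without Vehicle tumour 2 it was -0.44, and without Vehicle tumour 3 it was 0.66. Cdh1, which encodes E-cadherin, the adhesion receptor of adherens junctions, was at 3.62, 4.06 and 3.50 in AZD7507 tumours, against 3.27, 3.23 and 4.06 in Vehicle tumours. One tumour of each group was high, and these were not tumours of the same number. Cdh1 differed by 0.20 (SE 0.25, 95% interval -0.39 to 0.80, limma adjusted p 0.87), and by -0.11 without both tumours with acinar transcripts. Leaving out 1 tumour gave Cdh1 differences from 0.04, without AZD7507 tumour 2, to 0.47, without Vehicle tumour 3, with 0.06 and 0.08 without Vehicle tumours 2 and 1, and 0.32 without AZD7507 tumour 3.

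Cldn3, a sealing claudin that is abundant in many human serous carcinomas, was at 1.21, 2.49 and 0.93 in AZD7507 tumours, against -0.83, 2.16 and -0.26 in Vehicle tumours. Tumour 2 was the highest in both groups, and the groups overlapped. The means were 1.54 ± 0.83 and 0.36 ± 1.59, a difference of 1.19 (SE 0.78, 95% interval -0.64 to 3.01, limma adjusted p 0.75). It was 0.59 without Vehicle tumour 1, 0.71 without AZD7507 tumour 2 and 2.09 without Vehicle tumour 2. With 1 added to RPKM before the logarithm, the Cldn3 difference was 0.67, since values near 0 on the log2 scale rest on about 1 RPKM.

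Muc1, a membrane-bound mucin of glandular epithelium, was at -0.83, 2.96 and -0.03 in AZD7507 tumours, against -0.71, 2.04 and -1.16 in Vehicle tumours. Tumour 2 of each group stood apart from the other 4, which were all below 0. Muc1 had the widest spread of the 8, with means of 0.70 ± 1.996 and 0.06 ± 1.73 and a difference of 0.64 (SE 1.14, 95% interval -2.03 to 3.32, limma adjusted p 0.92). Without AZD7507 tumour 2 the difference was -0.49, and without Vehicle tumour 2 it was 1.63, so its sign changed with 1 tumour. Muc16, the mucin that carries the CA125 antigen and a serous and mesothelial marker, was measured beside it. It was at 5.44, 5.01 and 5.77 in AZD7507 tumours, against 5.75, 3.77 and 5.68 in Vehicle tumours, with tumour 2 the lowest of each group.

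The levels of the 8 genes, compared per gene length, spanned most of the range of the table. Krt19 and Krt18 were at percentiles 99.57 and 99.21 of the mean log2 level over all genes, Krt7 at 93.02 and Krt8 at 90.52. Cdh1 and Epcam followed at 77.25 and 74.34. Cldn3 at 25.89 and Muc1 at 18.26 were low. Within single tumours, Krt18 and Krt19 never left the top 2% of genes, while Muc1 ran from percentile 6.35 in Vehicle tumour 3 to 63.73 in AZD7507 tumour 2. Krt19 was above Krt18 in all 6 tumours, by 0.21 to 0.84 log2 units, whereas Krt7 and Krt8, Cdh1 and Epcam, and Cldn3 and Muc1 exchanged places between tumours. The pooled SD within groups was 0.14 for Krt18 and 0.17 for Krt8, below the median of 0.22 over all genes, and 1.87 for Muc1 and 1.27 for Cldn3, above it.

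The 9 measured of 11 pancreatic acinar markers, which encode digestive enzymes, had a mean log2 RPKM of -0.28, 9.19 and -2.35 in AZD7507 tumours, against -0.79, 9.04 and -3.58 in Vehicle tumours. Their share of the summed normalized RPKM ran from 0.00156% to 2.71% in AZD7507 tumours and from 0.00118% to 2.46% in Vehicle tumours. The columns share nearly the same distribution, and Prss2 was at 9.4408 in both AZD7507 tumour 2 and Vehicle tumour 2. These shares therefore do not measure the acinar part of the RNA. Amy2a5 and Ptf1a had no row. These 2 tumours, numbered 2 in each group, were above the other 4 for Cldn3 and Muc1, and below the other 4 for Epcam, Krt7 and Krt19. Over all genes, 13% were above and 16.2% below in this way. The split is a description, and whether it is more frequent among epithelial genes was not tested. Krt8, Krt18 and Cdh1 did neither.

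**Figure D2:**
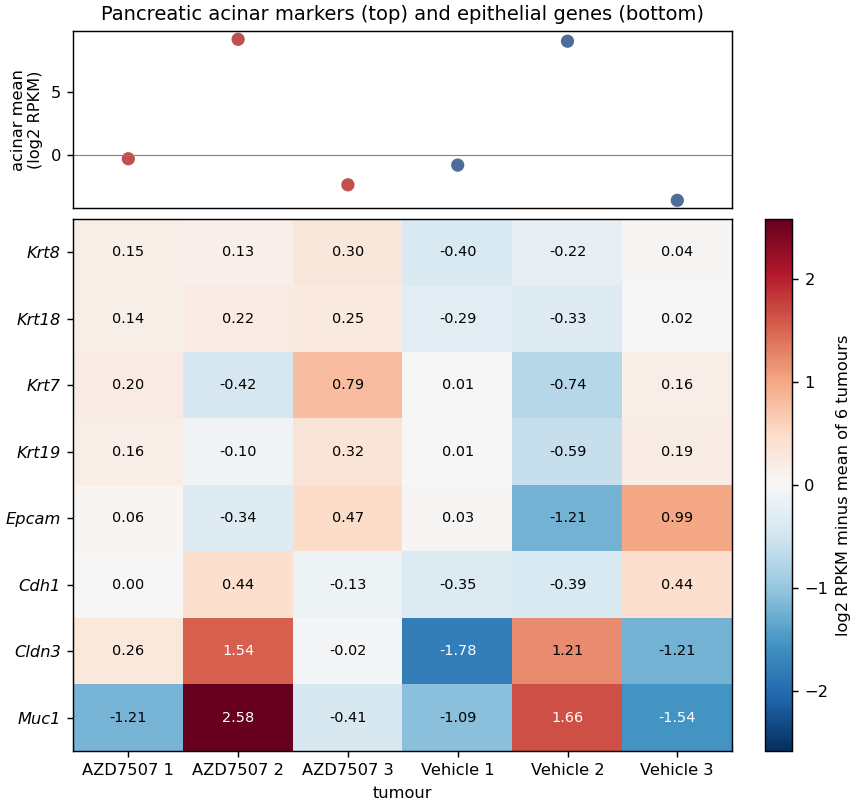
Top: mean log2 RPKM of the 9 measured acinar markers in each tumour. Bottom: log2 RPKM of each epithelial gene minus its mean over the 6 tumours, coloured from blue (below the mean) to red (above it). Cldn3 and Muc1 are high in AZD7507 2 and Vehicle 2, with Cldn3 at 1.54 and 1.21 and Muc1 at 2.58 and 1.66, where Krt7, Krt19 and Epcam are below their means.

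Other genes of junctions and keratins lay on both sides of the same split. Of 10 desmosome genes, Dsg2, Dsc2, Pkp1, Pkp2 and Evpl were below the other 4 tumours in both acinar-rich tumours, and Pkp3 and Pkp4 above. Of 10 adherens junction partners, Ctnna1, Jup, Cdh3 and Afdn were below and none above. Of 20 tight junction genes, 7 were below, among them the junction adhesion gene F11r, Tjp1 and cingulin (Cgn), and Cldn10, Marveld3, Tjp3 and Ildr1 were above. Krt15, Krt23, the splicing regulator Esrp2 and the surface protein gene Cd24a were also above. The serous and mesothelial markers Wt1, Msln, Muc16 and Upk3b were below, and Pax8 and Sox17 of the same 9 were above.

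Leaving out both acinar-rich tumours left 2 tumours in each group. The tumours left out were picked by their acinar values in these data. They held the highest Cldn3 and Muc1 values of each group, so a smaller spread of both genes follows from the choice. The difference of Cldn3 was then 1.62 (SE 0.27), with an unadjusted p of 9.5e-04 and an adjusted p of 0.11 in limma, and that of Muc1 was 0.50 (SE 0.37). Krt8 was at 0.41 and Krt18 at 0.33, while Krt19 was at 0.14 and Epcam turned to -0.24. At an unadjusted p under 0.05, 2 of the 8 were then higher, Krt8 and Cldn3, against 7.59% of all genes. With the acinar mean as a covariate in all 6 tumours, Krt7 differed by 0.44 (SE 0.13), Krt19 by 0.29 (SE 0.10) and Krt18 by 0.41 (SE 0.11). Krt8 differed by 0.39 (SE 0.13) and Cldn3 by 1.07 (SE 0.35). Epcam, Cdh1 and Muc1 differed by 0.20, 0.21 and 0.47 (SE 0.25, 0.26 and 0.37). In that fit 5 of the 8 were higher at an unadjusted p under 0.05, against 6.47% of all genes. None passed after adjustment, the smallest limma adjusted p being 0.18 for Krt18, where 0.0979% of all genes passed upward. The covariate was added after the data had been seen.

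**Figure D3:**
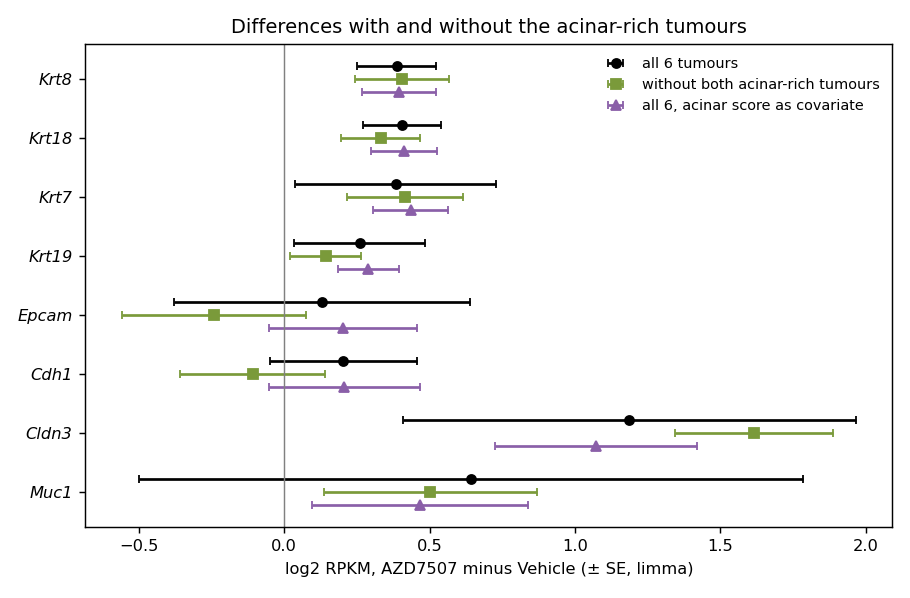
Difference in log2 RPKM, AZD7507 minus Vehicle, for each gene with its SE from limma, in all 6 tumours, without both acinar-rich tumours, and with the acinar mean as a covariate. The differences of the keratins, Cldn3 and Muc1 stay above 0 in all 3 fits, whereas Epcam and Cdh1 are at -0.24 and -0.11 without the acinar-rich tumours.

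Genes of the same structures outside the 8 gave no call over all genes. Of 12 other keratins 6 were measured, all with a difference above 0 and a median of 0.73. That median rests largely on genes of low level: Krt23, Krt10, Krt17 and Krt80 were at percentiles 4.9, 11.86, 19.15 and 20.03 over all genes. Krt14, a keratin of basal and stratified epithelium, was at 7.06, 6.52 and 6.87 in AZD7507 tumours, against 6.80, 7.005 and 6.50 in Vehicle tumours. That is percentile 98.76, close to Krt18, with a difference of 0.04 (SE 0.19, limma adjusted p 0.97). Krt17, an epithelial stress keratin, was at 0.43, 0.84 and 1.66 in AZD7507 tumours, against -0.81, -0.02 and 0.56 in Vehicle tumours. It differed by 1.06 (SE 0.43, limma adjusted p 0.54). Krt10 and Krt15 differed by 0.64 and 1.20, and Krt15 was at 4.78 in AZD7507 tumour 2. Krt14 and Krt17 are close in sequence, so reads may have been split between them.

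Of 26 other tight junction genes 20 were measured, 16 with a difference above 0 and a median of 0.19. Cldn12, a claudin of many tissues, was at 2.598, 2.56 and 2.81 in AZD7507 tumours, against 2.11, 2.10 and 2.42 in Vehicle tumours. The groups did not overlap, as for 7.34% of all genes upward, and the difference was 0.45 (SE 0.14, limma adjusted p 0.38). The polarity gene Pard6b and the claudin gene Cldn15 differed by 0.37 and 0.57 (limma adjusted p 0.72 and 0.73). The 10 adherens junction partners had a median of 0.04, with differences from -0.17 to 0.18. Nectin2, Nectin1 and Nectin4, which encode adhesion receptors of the same junctions, were at 0.18, -0.17 and -0.17. The 10 desmosome genes had a median of 0.16, with Dsc2 at 0.59, Pkp4 at 0.15 and Pkp2 at 0.25, and 0 calls.

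Of 9 other mucins 2 were measured, Muc16 with a difference of 0.34 (SE 0.52) and Muc2 with -0.16 (SE 0.62). Of 20 genes of the epithelial state 9 were measured, with a median of 0.24. Klf5, a transcription factor gene of proliferating epithelium, was at 0.33, 0.42 and 0.45 in AZD7507 tumours, against -0.60, 0.10 and 0.07 in Vehicle tumours. The groups did not overlap, as for 7.34% of all genes upward, and Klf5 differed by 0.55 (SE 0.25, limma adjusted p 0.61). Its level was low, at percentile 15.43 over all genes. Spint2, a protease inhibitor gene, and Esrp2 were at 0.24 and 0.25. Grhl2, Esrp1, Ovol1, Ovol2, St14, Rab25 and 5 other genes of that list had no row.

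Of 11 genes of epithelial-mesenchymal transition 10 were measured, with a median of -0.02. Zeb2, an E-box repressor of epithelial genes that macrophages also express, was at 4.29, 4.04 and 3.85 in AZD7507 tumours, against 4.47, 4.96 and 4.63 in Vehicle tumours. The groups did not overlap, as for 8.02% of all genes downward, and Zeb2 differed by -0.63 (SE 0.17, limma adjusted p 0.27). Its relative Zeb1 was at 3.07, 2.83 and 2.96 in AZD7507 tumours, against 3.24, 2.87 and 3.17 in Vehicle tumours, a difference of -0.14. Cdh2, the neural cadherin gene, and Twist1, a mesenchymal transcription factor gene, differed by 0.41 and 0.23 (limma adjusted p 0.57 and 0.74). Vim, the mesenchymal filament vimentin, was at 8.55, 7.99 and 8.41 in AZD7507 tumours, against 8.53, 8.14 and 8.66 in Vehicle tumours, so it stood above Krt19 in all 6.

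**Figure D4:**
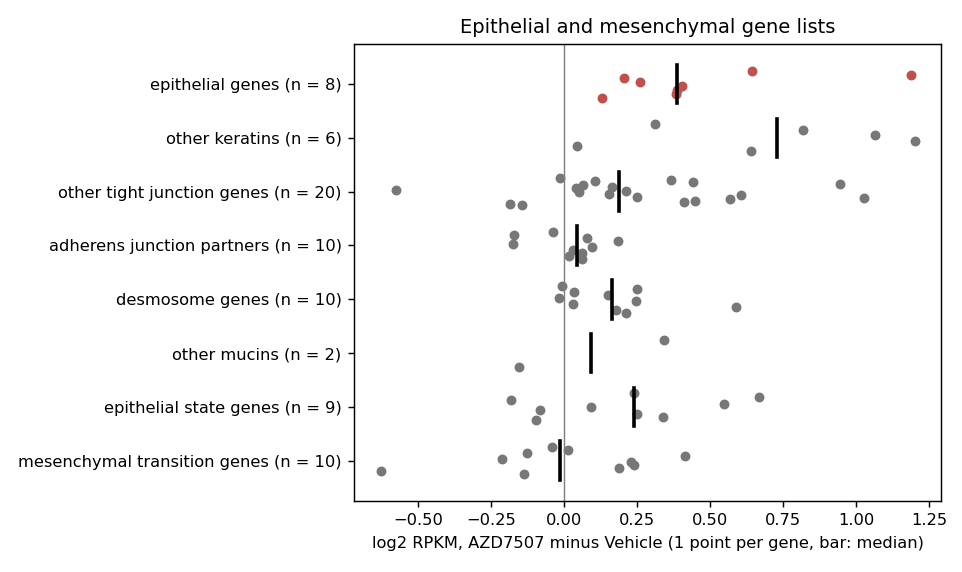
Difference in log2 RPKM, AZD7507 minus Vehicle, for each measured gene of 8 lists, with n genes in each and a black bar at the median. The 8 epithelial genes lie at 0.13 to 1.19, the adherens junction partners at -0.17 to 0.18, and the mesenchymal transition genes on both sides of 0.

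All 8 macrophage markers were lower in every AZD7507 tumour, 6 of them past the threshold. Without any 1 Vehicle tumour no gene of the table passed downward, and 14, 1 and 2 genes did without AZD7507 tumour 1, 2 or 3. The summed RPKM of the macrophage markers was 0.0200% to 0.0356% of the normalized total in AZD7507 tumours and 0.111% to 0.186% in Vehicle tumours. Its part in the differences of the epithelial genes was not tested. The serous and mesothelial markers were all measured, with a mean log2 level of 3.75 to 3.93 in AZD7507 tumours and 3.10 to 3.77 in Vehicle tumours. Among them Gpm6a differed by 0.67, Upk3b by 0.37 and Lrrn4 by 0.57 (limma adjusted p 0.25, 0.73 and 0.78). Their part was not tested either.

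Against the tissue label, Wt1 was at 6.49, 6.36 and 6.72 in AZD7507 tumours, against 6.65, 6.13 and 6.46 in Vehicle tumours. Pax8, a defining transcription factor gene of serous carcinoma, was at -3.02, -2.52 and -3.79 in AZD7507 tumours, against -3.62, -2.09 and -3.89 in Vehicle tumours. At percentile 0.2 over all genes, Pax8 was near the bottom of the table, while Msln was at 6.47, 5.47 and 6.79 in AZD7507 tumours and 6.51, 5.78 and 6.41 in Vehicle tumours. Wt1, Msln, Upk3b, Krt8, Krt18 and Krt19 are expressed in mesothelium as well, so the epithelial transcripts cannot be assigned to carcinoma cells from these values.

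The other marker lists held 0 calls. Of 9 pancreatic duct and islet markers, Sox9, Slc4a4 and Cftr were measured and differed by 0.31, 0.15 and 0.32. Of 8 intestinal markers, Lgals4 and Vil1 were measured, at -0.27 and 0.00. None of 5 hepatocyte markers had a row. The medians were -0.21 for 6 fibroblast genes, 0.13 for 4 endothelial genes, 0.77 for 2 adipocyte genes and -0.94 for 3 lymphocyte genes. Named by the same rule were Pdgfrb at -0.46, Dcn at 0.22 and Lum at -0.30 among fibroblast genes, and Kdr at 0.30, Tek at 0.21 and Cdh5 at 0.04 among endothelial ones. Cfd was at 0.84 and Plin1 at 0.70, and Cd4 at -1.36, Cd79b at -0.94 and Cd3e at -0.08. The levels of these adipocyte and lymphocyte genes were low, at percentiles 0.54 to 8.39 over all genes. Among acinar markers Prss2, Ctrb1 and Cela3b differed by 1.21, 0.93 and 0.80, far inside their spread (SE 4.93, 5.05 and 4.68). Among macrophage markers Cx3cr1, C1qa and Adgre1 differed by -3.18, -2.56 and -2.28 (SE 0.29, 0.25 and 0.25).

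The mean of the 8 genes, each centred on its own mean, was -0.03, 0.51 and 0.20 in AZD7507 tumours, against -0.48, -0.08 and -0.11 in Vehicle tumours. It was highest in AZD7507 tumour 2, where Muc1 and Cldn3 were furthest above their own means. Among 11560 other genes with a mean log2 RPKM of at least 0, without gene models of the Gm-number or Rik kind, the closest to this profile over the 6 tumours were Pop5, a subunit gene of RNase P, and Ranbp1, a partner of the GTPase Ran. Their Pearson r was 0.997 and 0.996. Tbc1d8b, Mmrn2 and Selenok followed at 0.992, 0.990 and 0.989. The measure of likeness rests on 6 tumours that share these libraries, and the genes named were picked as the highest r among 11560. Of the acinar-rich tumours, only AZD7507 tumour 2 stood apart in this profile.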

How the data were processed

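RNA of 6 tumours, 3 AZD7507 and 3 Vehicle, was sequenced after a Ribozero step that removes ribosomal RNA, per the labels' protocols. The authors deposited 1 table of log2 RPKM values normalized with cqn, per the file headers and the name of the table. BWA 0.7.15-r1140, HTSeq, mm10 and GRCm38 are named in the submitters' processing notes, but an annotation release, strand setting or filter is not given in the sources used here. The columns share nearly the same distribution, with an upper quartile of 3.52 in each, so a change in total RNA would leave no trace. No counts were used, so the depth of the libraries is unknown and precision comes only from the spread between 3 tumours, which may in part be technical.

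The label for treatment gave the groups, and tumours were numbered by accession order within each. Symbols were matched for 16306 of 16344 identifiers. The log2 values were fitted as deposited with limma 3.58.1 in R 4.3.3 (trended, robust prior), AZD7507 minus Vehicle, with 2-sided tests and Benjamini-Hochberg adjustment over all genes at 0.05. The code was tested on simulated data. Named genes were the 10 members, the 3 genes of smallest unadjusted p in each of 7 related lists and 10 marker lists, and the 5 genes of most similar profile, with other list genes named for their values. The genes and lists were chosen with earlier results of these data known. Alternatives were array weights, another variance prior, quantile normalization or centring on the median, adding 1 or 0.1 to RPKM, keeping genes of mean log2 RPKM of at least 0, each library left out, both acinar-rich tumours left out, and an acinar covariate.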

Additional observations from a re-analysis of the deposited data

How the results depend on the processing

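None of the 8 epithelial genes passed under any of the 15 alternatives. At an unadjusted p under 0.05 in limma, between 0 and 5 of them were higher in AZD7507 tumours. Over all genes, that count ran from 257 without AZD7507 tumour 3 to 1274 with array weights. The 5 came with the acinar covariate, where 6.47% of all genes were higher. Krt7, Krt8, Krt18, Krt19 and Cldn3 had a difference above 0 in all 15 alternatives. Krt7 shrank to 0.08, Krt19 to 0.03 and Cldn3 to 0.59 without 1 tumour. Of 120 gene values 7 turned sign, but many of the 120 could hardly do so. The other variance prior and the minimum level leave every difference unchanged by construction. Quantile normalization and median centring hardly moved them, since the columns already shared nearly the same distribution. Epcam turned to -0.36 with array weights, -0.07 without AZD7507 tumour 3, -0.44 without Vehicle tumour 2 and -0.24 without both acinar-rich tumours. Cdh1 turned to -0.12 with array weights and -0.11 without both acinar-rich tumours, and Muc1 to -0.49 without AZD7507 tumour 2. The highest values without 1 tumour were 0.66 for Epcam, without Vehicle tumour 3, and 1.63 for Muc1, without Vehicle tumour 2. The cause was not tested. The median difference of the 8 ran from 0.22 to 0.51 when 1 tumour was left out, against 0.39.

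Over all genes, 3 were higher and 55 lower. The constant variance prior gave 1 higher, array weights 14 higher and 143 lower, the acinar covariate 16 higher and 187 lower, and the fit without both acinar-rich tumours 1 higher and 13 lower. Without 1 tumour, 0 were higher and 0 to 14 lower, with 257 to 1082 higher and 606 to 1359 lower at an unadjusted p under 0.05. No paired analysis was possible because the labels give no replicate numbers. Cldn3, Muc1, Pax8, Klf5, Krt10, Krt17, Krt23 and Krt80 have values near or below 0, where few reads may stand behind them.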
